A study of Mus musculus with 6 samples.

Results

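The genes described here encode 9 receptors that steer T cells between tissues: Cxcr4, Cxcr3, Ccr2, Cx3cr1, Ccr4, Ccr8, Ccr9, Ccr7 and Gpr183. They were chosen by symbol, and all 9 were found among the 14051 genes of the table. The data are bulk RNA-Seq of donor CD8+ T cells in 6 libraries, of which 3 carry the GC label and 3 the vehicle label. GC-treated B6D2F1 recipients were injected with dexamethasone, a synthetic glucocorticoid (GC), at 5 mg/kg/day from day -1 to day 5 of the transplant, and vehicle-treated B6D2F1 recipients with methyl β-cyclodextrin over the same days. Recipients in both groups were transplanted with purified CD3+ T cells of B6.CD45.1 donors. On day 5 the donor CD8+ T cells marked by an intravascular antibody, that is the cells then inside vessels of the BM, were sorted from marrow pooled from 2 to 3 mice. The sources do not say whether each library had a pool of its own, so p-values measure the spread between these libraries, and that spread may be technical in part. Dexamethasone reached the whole recipient, so an effect on the T cells and one through other cells cannot be told apart in these samples. In bulk RNA, fewer cells that carry a transcript and less transcript per cell cannot be told apart either.

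All 9 are G protein-coupled receptors of the Gi-linked kind, which turn a gradient of ligand into directed movement and integrin activation. CXCR4 binds CXCL12 from marrow stroma and holds cells in the BM. CXCR3, CCR2 and CX3CR1 draw activated cells to inflamed tissue, CCR4 and CCR8 are known from skin-homing, type 2 and regulatory T cells, and CCR9 answers CCL25 of the small intestine. CCR7 leads cells into lymph nodes along CCL19 and CCL21, and GPR183 senses oxysterols at the edges of follicles. The study sequenced these cells to learn how GC acts on donor T cells passing through BM vessels, and the comparison here sets the marrow receptor against those for inflamed tissue, gut and lymph node.

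The values are normalized counts, in which the reads of a gene are divided by 1 size factor per library. Reads recovered from them summed to between 67887570 and 76888118 per GC-treated library and between 60949593 and 64801008 per vehicle-treated library. The test covered 11649 genes that reached a value of 10 in 3 or more libraries, and all 9 receptors passed this filter, each being above 10 in every library. Gzmb, the most abundant of the CD8+ T cell markers, averaged 617178 in GC-treated and 507475 in vehicle-treated libraries, with a Cd8a count of 68730 to 93850 in GC-treated and 63285 to 84617 in vehicle-treated libraries, and Cd4 stayed between 86.3 and 164 in GC-treated and between 97.1 and 178 in vehicle-treated libraries. The libraries did not group by label over all genes. Squared count differences per degree of freedom were 104 and 149 between GC-treated 1 and GC-treated 2 and 3, but 21.2, 35.8 and 31.2 between GC-treated 1 and vehicle-treated 1, 2 and 3. GC-treated 2 was also nearer to vehicle-treated 3 (62.2) and 1 (86.6) than to GC-treated 3 (93.9). B cell markers summed to 19692 to 23583 in GC-treated and 19348 to 27894 in vehicle-treated libraries, with Ighm the most abundant, and NK cell markers to 125472 to 177952 in GC-treated and 111521 to 147607 in vehicle-treated libraries, most of it Gzma, which T cells express too.

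Among promoters, 3 are shown for receptors that the results turn on: Cxcr4, Gpr183, which ranked the libraries in the same order as Cxcr4, and Ccr9, which did not. Each runs from 250 bases before to 50 bases after the RefSeq start (table of build GRCm38.p6), 5′ to 3′ on the strand of the gene, and each matched the GRCm39 genome at 1 place. Capitals mark the half-site of the glucocorticoid receptor motif, AGAACA on either strand.
Cxcr4, chr1:128519987-128520286, reverse strand: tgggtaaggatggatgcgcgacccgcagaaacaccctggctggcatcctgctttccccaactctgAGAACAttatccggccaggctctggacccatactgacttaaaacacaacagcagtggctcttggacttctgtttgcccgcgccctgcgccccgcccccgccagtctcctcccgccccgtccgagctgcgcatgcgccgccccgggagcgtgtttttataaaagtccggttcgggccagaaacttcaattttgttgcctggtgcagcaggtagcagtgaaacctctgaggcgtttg
Gpr183, chr14:122202556-122202855, reverse strand: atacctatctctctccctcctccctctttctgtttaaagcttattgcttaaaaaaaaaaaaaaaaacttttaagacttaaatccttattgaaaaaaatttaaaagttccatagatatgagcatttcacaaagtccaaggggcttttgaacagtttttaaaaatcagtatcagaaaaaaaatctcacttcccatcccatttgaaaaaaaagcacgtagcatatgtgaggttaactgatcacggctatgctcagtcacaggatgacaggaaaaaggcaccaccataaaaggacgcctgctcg
Ccr9, chr9:123596026-123596325, forward strand: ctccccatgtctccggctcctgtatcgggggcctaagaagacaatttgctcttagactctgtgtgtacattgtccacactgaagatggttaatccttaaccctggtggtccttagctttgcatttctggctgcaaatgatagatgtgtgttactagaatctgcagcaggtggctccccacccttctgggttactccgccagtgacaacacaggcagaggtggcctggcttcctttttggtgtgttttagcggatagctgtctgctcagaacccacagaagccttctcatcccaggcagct

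The Cxcr4 promoter held 1 GR half-site, starting 185 bases before the start, and 3 GC boxes (GGGCGG on either strand), the motif of SP and KLF factors. The half-site is common, being held by 18.9% of 32534 RefSeq promoters of the same length, and the GC box by 35.9%. The Gpr183 and Ccr9 promoters held neither. GC content was 59.3% for Cxcr4, 35.3% for Gpr183 and 51.3% for Ccr9, with a median of 53% over all promoters. Of 8 receptors with an entry, Cxcr4 alone held the half-site or the GC box, and none held the FOXO motif GTAAACA (3.66% of promoters) or the T-box motif AGGTGTGA (1.28%). The RUNX motif TGTGGT (16.7% of promoters) stood in the Cxcr3 and Cx3cr1 promoters, and the AP-1 motif TGACTCA (5.19%) in that of Ccr4. All motifs were searched on both strands. Ccr7 had no entry. A match describes letters in this window and says nothing of binding.

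The receptors covered a wide range of levels. Per kb of the annotated canonical transcript, Cxcr3 was the highest of the 9, with 17746 to 20563 normalized counts per kb over the 6 libraries. Ccr2 followed with 2604 to 4274 per kb. Neither range met that of the next receptor. Below them lay Ccr9 (median 799 per kb), Gpr183 (400), Ccr7 (375) and Cxcr4 (309), whose ranges each overlapped that of the next, so their order is not fixed. Cx3cr1 had a median of 161 per kb, Ccr8 of 66.2 and Ccr4 of 24.4, where Cx3cr1 and Ccr8 did not overlap and Ccr8 and Ccr4 did. Lengths come from 1 annotated transcript per gene, and with all annotated exons of Ccr9 its median was 392 per kb. The cells thus carried far more transcript per length for the inflammatory receptors CXCR3 and CCR2 than for the marrow, gut or lymph node receptors, in GC-treated and vehicle-treated libraries alike.

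**Figure D1:**
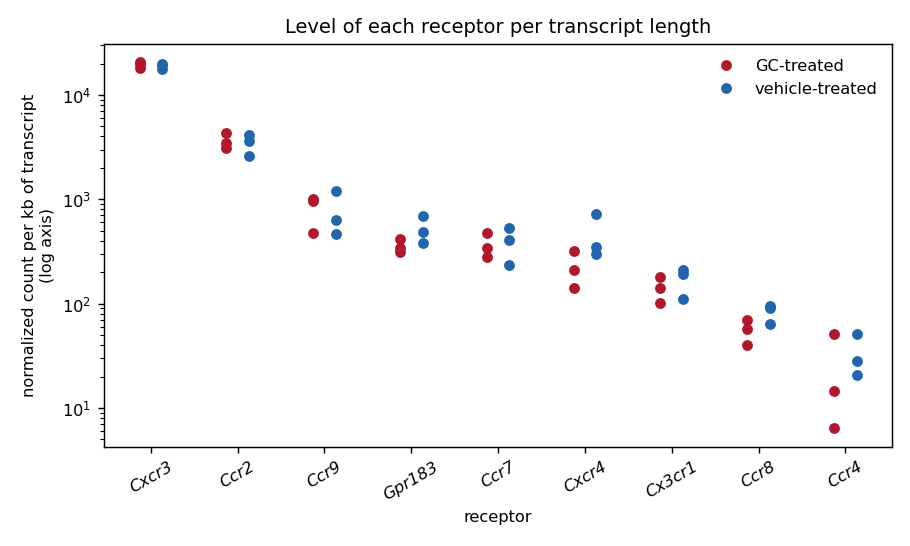
Normalized count per kb of canonical transcript (log axis) for each receptor, ordered by median. Points are libraries, with GC-treated on the left and vehicle-treated on the right of each receptor; Cxcr3 and Ccr2 stand above the rest, with ranges of 17746 to 20563 and 2604 to 4274 per kb.

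None of the 9 receptors differed between GC-treated and vehicle-treated libraries at an adjusted p under 0.05 from limma, where 0% of all tested genes did, and none did by edgeR or DESeq2 on the recovered reads. At an unadjusted p under 0.05, 2 of the 9, Cxcr4 and Gpr183, were lower in GC-treated libraries by limma, as they were by edgeR and by DESeq2, against 5.07% of all tested genes in that direction. Neither passed that unadjusted threshold by limma without the variance trend, nor without GC-treated 2, GC-treated 3 or vehicle-treated 2. In the other direction the receptors numbered 0, against 2.12% of all genes. Log2 fold changes were negative for 6 and positive for 3 receptors, with a median of -0.27, and over all tested genes 51.5% were negative, with a median of -0.0079. For each receptor the GC-treated and vehicle-treated libraries overlapped, whereas 6.4% of all tested genes were without overlap in each direction. Without GC-treated 1, limma called 2 genes higher and 43 lower, none of them a receptor. The median of the 9 was -0.55 without vehicle-treated 3 and -0.072 without GC-treated 2.

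**Figure D2:**
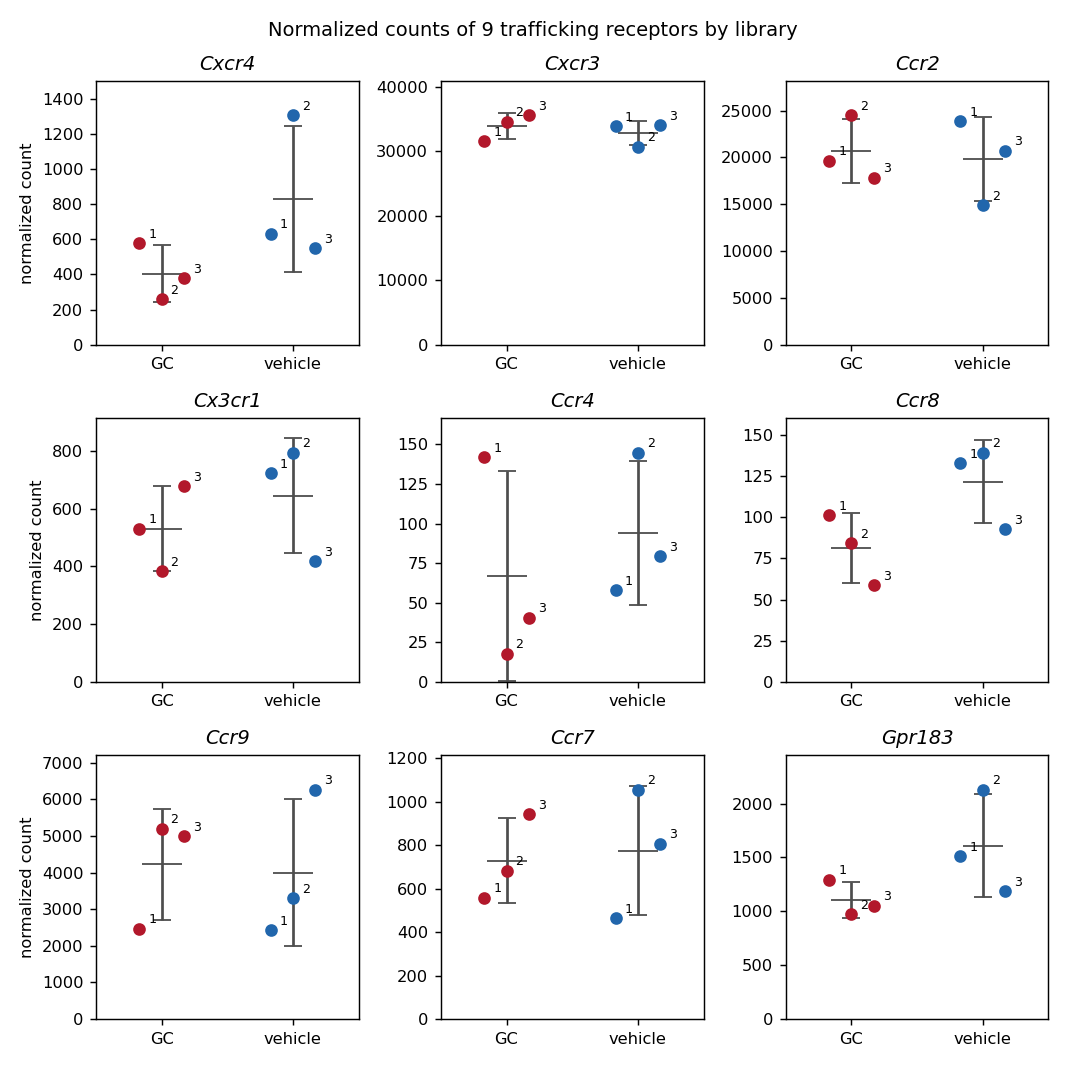
Normalized counts of the 9 receptors in each library. Each point is a library, numbered by replicate, with GC-treated left of vehicle-treated, and lines show the mean ± SD (n = 3). In every panel the groups overlap, and vehicle-treated 2 holds the highest count of 6 receptors.

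Cxcr4 occupies bases 128515936 to 128520044 of chromosome 1 (GRCm39, the build of all positions here) and overlaps no other annotated gene. It was counted at 577, 259 and 379 in GC-treated 1, 2 and 3, against 633, 1307 and 550 in vehicle-treated 1, 2 and 3. GC-treated 1 lay above vehicle-treated 3, and the highest vehicle-treated library, number 2, stood well above the other 5. Means were 405 ± 161 for GC-treated and 830 ± 415 for vehicle-treated libraries (SD, n = 3 each). On the log2(normalized count + 1) scale used for all fold changes here, the change was -1.00 with a standard error of 0.37 and a 95% interval from -1.83 to -0.17 (unadjusted p = 0.024, adjusted p = 0.62 from limma over all genes). The fold change was negative under all 14 alternative settings run, with adjusted p from 0.13 to 0.92. Dropping the filter or the trend, or adding a replicate block, cannot change the fold change, since these alter only its error. The value moved to -1.29 without GC-treated 1 (adjusted p = 0.13, limma) and to -0.62 without vehicle-treated 2. DESeq2 on the recovered reads gave Cxcr4 an unadjusted p of 0.0035 and an adjusted p of 0.47.

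Of the receptors for inflamed tissue, Cxcr3 and Ccr2 had the smallest spread of the 9. Cxcr3, on the X chromosome from 100775141 to 100777875, had counts of 31601, 34639 and 35595 in GC-treated libraries against 33880, 30718 and 34112 in vehicle-treated libraries. The highest and lowest library differed by 1.16-fold, and the SD of its log2 values, 0.082, was above that of only 9.04% of tested genes, whose median was 0.19. Means were 33945 ± 2085 in GC-treated and 32903 ± 1896 in vehicle-treated libraries (SD, n = 3 each), and the fold change was 0.045 (95% interval -0.14 to 0.23, adjusted p = 0.85 from limma). Ccr2, on chromosome 9 from 123901982 to 123913594, had counts of 19637, 24483 and 17849 in GC-treated against 23849, 14917 and 20704 in vehicle-treated libraries. Here too the libraries of both labels mixed, with a fold change of 0.073 (95% interval -0.32 to 0.47, adjusted p = 0.89 from limma). Without vehicle-treated 2 the fold changes were -0.0040 for Cxcr3 and -0.12 for Ccr2, and without GC-treated 2 that of Ccr2 was -0.056.

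Cx3cr1, the fractalkine receptor of cytotoxic effector cells and monocytes (chromosome 9, bases 119877749 to 119898945), shares 78 exonic bases with Gm33858 on the other strand. It had counts of 531, 383 and 677 in GC-treated libraries and of 723, 795 and 418 in vehicle-treated libraries, so a low library was present in each group. The fold change was -0.27 (95% interval -0.91 to 0.38, adjusted p = 0.74 from limma), or -0.052 without GC-treated 2 and -0.55 without vehicle-treated 3. CCR2 and CX3CR1 also mark monocytes. Of 11 other monocyte and macrophage markers tested, none was called, and their summed count was 1877 to 2580 in GC-treated and 2176 to 2479 in vehicle-treated libraries. Lyz2, Cd68 and Ly6c2 of that list were not analysed here. The part of such cells in Ccr2 and Cx3cr1 was not tested.

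Ccr4 and Ccr8, the pair known from skin-homing and regulatory T cells, were the lowest of the 9. Ccr4, on chromosome 9 from 114319384 to 114333984, had counts of 142, 17.9 and 40.4 in GC-treated against 57.8, 145 and 79.3 in vehicle-treated libraries. GC-treated 1 matched vehicle-treated 2 at the top, and GC-treated 2, with 18 recovered reads, was the lowest, a range of 8.11-fold. The fold change was -0.87 (95% interval -2.47 to 0.72, adjusted p = 0.68 from limma), or -1.66 without GC-treated 1, -0.20 without GC-treated 2 and -0.49 by edgeR and by DESeq2. Ccr8, on chromosome 9 from 119921180 to 119924263, was at 101, 84.3 and 58.8 in GC-treated libraries, against 133, 139 and 92.9 in vehicle-treated libraries. A single GC-treated library, number 1, reached into the vehicle-treated range, and the fold change was -0.59 (95% interval -1.34 to 0.17, adjusted p = 0.63 from limma), or -0.37 without GC-treated 3. Of 10 tested markers of CD4 and regulatory T cells, of which Il2ra was the most abundant, 9 had negative fold changes, 2 of them, Tnfsf8 at -0.98 and Cd40lg at -1.24, without overlap between the groups. Over all tested genes 51.5% had negative fold changes and 6.4% were lower without overlap. The summed count of that list was 16218 to 18111 in GC-treated and 16722 to 20785 in vehicle-treated libraries, with Foxp3 at 172 to 524 in GC-treated and 212 to 595 in vehicle-treated libraries, and what these cells add to Ccr4 and Ccr8 was not tested.

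The gut receptor Ccr9 varied between libraries without following the labels. On chromosome 9 (bases 123507181 to 123613395) it shares exonic bases with Slc6a20a and Gm17021 on the other strand. Reads there cannot be parted by gene, since the library kit does not mark strand. Ccr9 also shares exonic bases with Gm17200 on its own strand. GC-treated 1, 2 and 3 had counts of 2465, 5203 and 5003, against 2428, 3305 and 6267 in vehicle-treated 1, 2 and 3. Means were 4223 ± 1526 in GC-treated and 4000 ± 2012 in vehicle-treated libraries (SD, n = 3 each). GC-treated 1 sat with vehicle-treated 1 and 2 at the low end, and vehicle-treated 3 was the highest of the 6. The fold change was 0.12 (95% interval -0.71 to 0.94, adjusted p = 0.92 from limma) and it turned to -0.072 without GC-treated 2, -0.044 without GC-treated 3 and -0.18 without vehicle-treated 1. GC-treated 2 and 3 and vehicle-treated 3 also had the highest summed counts of 11 neutrophil markers, at 12797, 9063 and 4498, against 1887 in GC-treated 1 and 873 and 485 in vehicle-treated 1 and 2. The same 3 libraries had the highest sums over 9 effector T cell genes, most of it Gzmb, with 924345 to 1040700 in GC-treated 2 and 3 and 877290 in vehicle-treated 3, against 704441 in GC-treated 1 and 572544 to 781191 in vehicle-treated 1 and 2. Not every gene of that list followed its sum: Prdm1 was lowest in these 3 libraries, at 2946 and 1562 in GC-treated 2 and 3 and 3704 in vehicle-treated 3, against 4022 in GC-treated 1 and 4110 and 4165 in vehicle-treated 1 and 2, and Zeb2 was lowest in GC-treated 3, at 106. Nor did every neutrophil marker follow its sum: Elane was lowest in GC-treated 2, at 25.8, against 177 in GC-treated 1. Mpo was higher in GC-treated 1 (326) than in GC-treated 3 (221). The part of either list in Ccr9 was not tested.

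Of the lymph node and follicle receptors, Gpr183 had a mean well below that of vehicle-treated libraries in the GC-treated ones, while the means of Ccr7 lay close together. Ccr7, on chromosome 11 from 99035022 to 99045911, shares 133 exonic bases with Gm57398 on the other strand. It had counts of 559, 683 and 944 in GC-treated libraries, against 464, 1056 and 806 in vehicle-treated libraries. Its means were 729 ± 196 in GC-treated and 775 ± 298 in vehicle-treated libraries (SD, n = 3 each) and the libraries interleaved, with a fold change of -0.044 (95% interval -0.73 to 0.64, adjusted p = 0.97 from limma) that turned positive without GC-treated 1 (0.13), vehicle-treated 2 (0.22) or vehicle-treated 3 (0.024). Gpr183, on chromosome 14 from 122189592 to 122202610 within an intron of Ubac2 on the other strand, had counts of 1293, 971 and 1052 in GC-treated libraries, against 1513, 2130 and 1185 in vehicle-treated libraries. Only GC-treated 1 reached above the lowest vehicle-treated library. Means were 1105 ± 167 in GC-treated and 1609 ± 480 in vehicle-treated libraries (SD, n = 3 each). The change was -0.51 with a standard error of 0.21 and a 95% interval from -0.99 to -0.030 (unadjusted p = 0.040, adjusted p = 0.62 from limma), and the adjusted p ran from 0.19 to 0.92 over its alternatives. The value was -0.29 without vehicle-treated 2. By DESeq2 on the recovered reads Gpr183 had an unadjusted p of 0.014 and an adjusted p of 0.65.

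**Figure D3:**
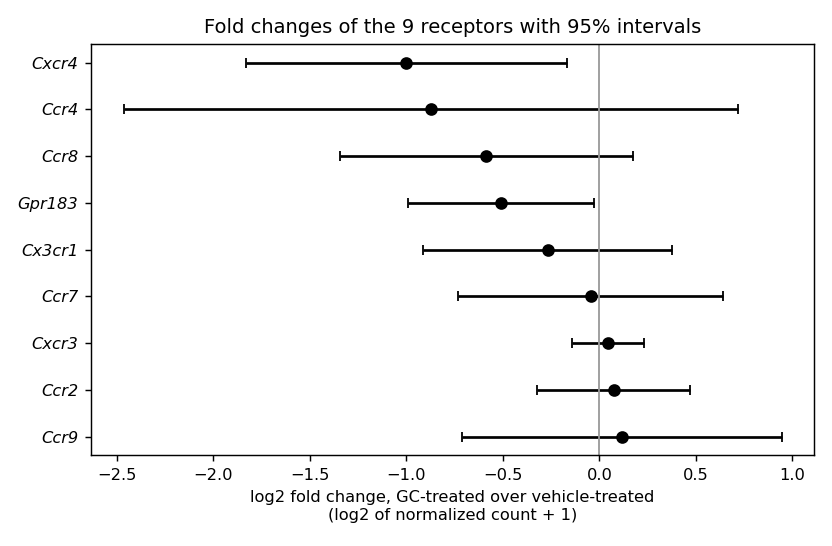
Log2 fold change of each receptor, GC-treated over vehicle-treated, on the log2(normalized count + 1) scale, with 95% intervals from limma; receptors run from the most negative at the top. The intervals of Cxcr4 (-1.83 to -0.17) and Gpr183 (-0.99 to -0.030) lie below 0 before adjustment for all genes, and those of the other 7 span 0.

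Cxcr4 was then set against each of the other 8 receptors within a library, which cancels the scaling of that library. Cxcr4 counts per 100 Ccr7 counts were 103, 37.9 and 40.1 in GC-treated 1, 2 and 3, against 136, 124 and 68.2 in vehicle-treated 1, 2 and 3. Per 100 Ccr9 counts they were 23.4, 4.98 and 7.57 in GC-treated libraries, against 26.1, 39.5 and 8.77 in vehicle-treated libraries, and per 100 Cxcr3 counts 1.83, 0.748 and 1.06 in GC-treated libraries, against 1.87, 4.25 and 1.61 in vehicle-treated libraries. In each of these ratios GC-treated 2 and 3 were lower than all 3 vehicle-treated libraries, and GC-treated 1 was not. As log2 ratios, GC-treated minus vehicle-treated means were -1.04 against Cxcr3, -1.07 against Ccr2, -0.73 against Cx3cr1, -1.12 against Ccr9 and -0.96 against Ccr7, with standard errors of 0.57, 0.72, 0.39, 0.93 and 0.56. Leaving out 1 library gave -1.39 to -0.61 against Cxcr3, -1.40 to -0.50 against Ccr2, -1.01 to -0.53 against Cx3cr1, -1.76 to -0.64 against Ccr9 and -1.42 to -0.70 against Ccr7. The value nearest 0 was that without vehicle-treated 2 for Cxcr3 and Ccr2 and that without GC-treated 2 for Ccr9 and Ccr7, and the value farthest from 0 was that without GC-treated 1 for all 5.

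The differences were smaller against the 3 receptors whose own fold changes were the most negative after that of Cxcr4: -0.49 against Gpr183, -0.41 against Ccr8 and -0.13 against Ccr4, with standard errors of 0.27, 0.44 and 0.55. Without GC-treated 2 they were -0.29 against Gpr183 and -0.088 against Ccr8. Against Ccr4 the value turned to 0.37 without GC-treated 1 and to 0.028 without vehicle-treated 1. On the log2 scale each difference equals the fold change of Cxcr4 minus that of the other receptor. Cxcr4 had the most negative fold change of the receptors compared, so all 8 pairs had to be negative with all libraries. The signs, and the smaller differences against Gpr183, Ccr8 and Ccr4, thus restate the fold changes and are not separate results. None of the pairs was without overlap, and the pairs share Cxcr4 and so are not independent. Two-sided exact permutation tests of the 8 pairs gave p from 0.2 to 0.9, or 0.32 to 0.90 after Benjamini-Hochberg adjustment over the pairs, where 3 against 3 libraries cannot give a p under 0.1. Cxcr4 was thus not shown to change apart from any other receptor, although its mean ratio to those for inflamed tissue, gut and lymph node was lower in GC-treated libraries.

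**Figure D4:**
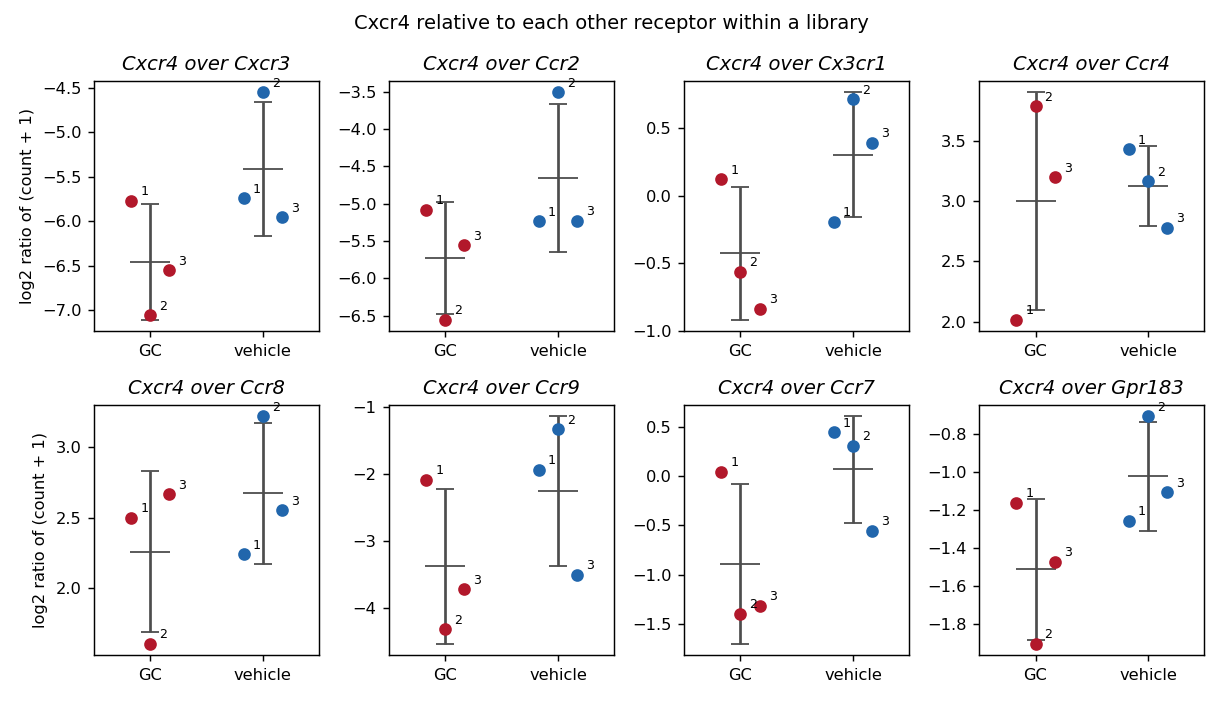
Log2 ratio of Cxcr4 to each other receptor, from normalized counts plus 1, in each library. Numbered points stand for libraries, GC-treated left of vehicle-treated, and lines for the mean ± SD (n = 3). The means differ by -1.04 for Cxcr3 and -1.12 for Ccr9, but the groups overlap in every panel.

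The 9 receptors did not vary as 1 block over the libraries. Cxcr4 and Gpr183 ranked them alike, from GC-treated 2 as the lowest through GC-treated 3, vehicle-treated 3, GC-treated 1 and vehicle-treated 1 to vehicle-treated 2 as the highest, an order shared by 80 tested genes other than Cxcr4 (0.687%). The share of mitochondrial reads had that order too, at 0.902%, 0.400% and 0.615% in GC-treated 1, 2 and 3, against 0.910%, 1.13% and 0.757% in vehicle-treated 1, 2 and 3, and its part in the receptor values was not tested. Klf2, a transcription factor of quiescent circulating T cells, followed the same order, at 5626, 4012 and 4296 in GC-treated libraries, against 6231, 9648 and 5601 in vehicle-treated libraries. Vehicle-treated 2 held the highest count of 6 of the 9 receptors, where 18.9% of all tested genes peaked, and the lowest count of Cxcr3 and Ccr2. Log2 values of Ccr4 and Cxcr4 had SDs of 1.13 and 0.78, above those of 94.4% and 90.5% of tested genes. The genes whose deviations lay nearest to those of Cxcr4, among 9682 with a mean count of at least 100, were Pkn3, Spock2 and Hhat, with root mean square differences of 0.17, 0.19 and 0.20 on the log2 scale over 6 libraries. Nearest to Ccr7 were Ctsh, Myo7a and Zfp874a (0.17, 0.19 and 0.20), and to Cx3cr1 Bak1, Slc26a11 and Cdc42ep4 (0.089, 0.11 and 0.12).

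**Figure D5:**
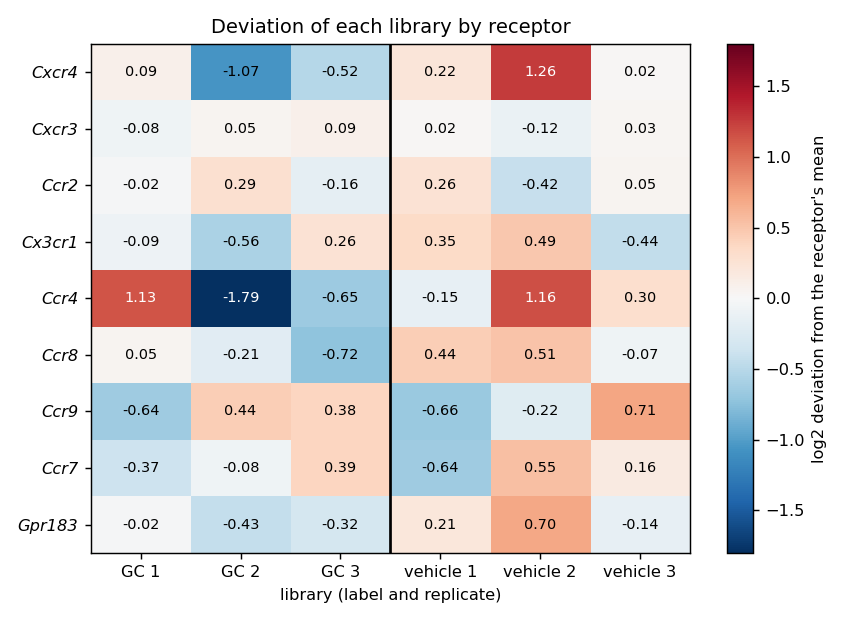
Log2 deviation of each library from the mean of each receptor, with GC-treated libraries left of the line and vehicle-treated right of it; red is above and blue below the mean. Cxcr4 and Gpr183 share their order over libraries, while Ccr9 is low in GC-treated 1 and vehicle-treated 1 and 2.

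Other receptors of this family gave a mixed picture as well. Of 36 other chemokine and chemoattractant receptors listed, 29 were in the table and 22 were tested, and none was called by limma. There were 0 higher and 3 lower at an unadjusted p under 0.05 (Ccr10, Ccr3 and S1pr1), and the median fold change was -0.11. At that unadjusted p, 2.12% of all tested genes were higher and 5.07% lower. Ccr10, known from skin-homing T cells and plasma cells, was at 44.2, 12.9 and 20.2 in GC-treated libraries, against 70.9, 169 and 55.3 in vehicle-treated libraries. It is the 1 receptor of the list whose groups did not overlap, and of all tested genes 6.4% were lower in this way. S1pr1, the receptor that leads T cells out of tissue, had a fold change of -0.42, and Ccr3, an eotaxin receptor, of -0.91. S1pr5, an egress receptor of effector cells, went the other way at 1.34 without passing either threshold, with 43.3, 249 and 218 in GC-treated against 43.6, 40.0 and 80.3 in vehicle-treated libraries. Cxcr6, the most abundant by count, was at 42711 to 61035 in GC-treated and 36800 to 52380 in vehicle-treated libraries.

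Ligand genes of the 9 receptors showed no call. Of 20 listed ligand genes, 10 were tested, and none reached even an unadjusted p under 0.05 by limma. The most abundant was Hmgb1, whose protein binds CXCL12, with a fold change of 0.10, and Cxcl9 and Ccl8 had -0.54 and -0.58. Cxcl12, the stromal ligand of CXCR4, had a count of 721 in GC-treated 3 and of 11.9 to 32.0 in the other GC-treated and 30.5 to 58.4 in the vehicle-treated libraries. Of the stromal and endothelial markers, Sparc (198), Col1a2 (183), Col1a1 (68.0), Lepr (68.0) and Kdr (18.4) were also highest in GC-treated 3, and Lepr was at 0 in all other libraries. Others were not. Pdgfrb and Emcn were at 0 in GC-treated 3, but they were near the floor throughout, at no more than 27.1 and 8.35 in any library. Vcam1 was at 415, 478 and 563 in GC-treated libraries, against 540, 706 and 1019 in vehicle-treated libraries (fold change -0.60, unadjusted p = 0.034, adjusted p = 0.62 from limma). The 11 markers of that list summed to 2985 to 4586 in GC-treated and 3492 to 4202 in vehicle-treated libraries, with Pecam1 the most abundant. What stromal RNA adds to the receptor counts was not tested. Cxcl10, a ligand of CXCR3, had counts of 349, 591 and 569 in GC-treated libraries, against 311, 280 and 523 in vehicle-treated libraries.

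Among signalling genes next to the receptors no call was made either. Of 25 tested G proteins, kinases, arrestins and regulators, none was called and none reached an unadjusted p under 0.05. Gnai2, the main Gi subunit of lymphocytes, was at 65621 to 70078 in GC-treated and 65554 to 69807 in vehicle-treated libraries. Grk2, a kinase that desensitises the receptors, had a fold change of -0.32, and Arrb2, an arrestin that uncouples and internalises them, of -0.22 without overlap between groups. Gnai3, at -0.099, was the other of the 2 genes of the list that were lower without overlap. Over all tested genes 6.4% were lower without overlap. Itch, a ubiquitin ligase that sends CXCR4 to lysosomes, had -0.22, and Rgs1, which shortens Gi signalling, 0.37.

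Of 30 tested effectors of chemokine-directed migration, 19 had negative and 11 positive fold changes and none was called. Those 5 that were lower at an unadjusted p under 0.05 included Prex1 (-0.44) and Pik3r5 (-0.42), which link Gβγ to RAC and PI3K, Tln1 (-0.45), which activates integrins, and Myh9 (-0.55), a nonmuscle myosin. Coro1a, the most abundant of the list, had a fold change of 0.13. Among 19 transcription factors that act on T cell trafficking genes, 15 had negative and 4 positive fold changes, with none called. Klf2 had a fold change of -0.60, Zeb2 of -0.65 and Prdm1 of -0.59, while Bhlhe40 was at 0.21 without overlap between the groups and Id2, the most abundant, at 0.25. Klf2 was the 1 factor at an unadjusted p under 0.05. For both lists the shares over all tested genes were 5.07% lower and 2.12% higher at that threshold. Fold changes were negative for 51.5% of all tested genes, and 6.4% in each direction were without overlap.

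Known targets of the glucocorticoid receptor were not higher as a group in GC-treated libraries. Of 14 tested, 11 had negative and 3 positive fold changes and none was called by limma, with 2 higher (Dusp1 and Nfkbia) and 2 lower (Fkbp5 and Il7r) at an unadjusted p under 0.05. Over all tested genes 51.5% had negative fold changes, and 2.12% were higher and 5.07% lower at that threshold. Fkbp5, a chaperone gene that GC induces in many cells, was at 21148, 16401 and 14780 in GC-treated libraries, against 24889, 32705 and 21271 in vehicle-treated libraries, a fold change of -0.59. Il7r, which GC raises in T cells, was at -1.05, and Dusp1 and Nfkbia at 0.47 and 0.31. All directions given here are those of the sample labels.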

How the data were processed

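RNA from sorted donor CD8+ T cells was amplified with the SMART v4 protocol and made into Nextera XT libraries. The authors aligned reads with STAR to GRCm39, counted them per gene with summarizeOverlaps and used DESeq2, and the deposited values are a normalized signal, counts divided by 1 size factor per library. No version of these tools is stated in the sources. Within each library 100% of values were whole multiples of the smallest one (tolerance 0.001), from which reads were recovered. The receptors and gene lists were chosen with earlier results of these data known.

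Groups and replicate numbers came from sample titles. The deposited values are not counts, so the main test was limma 3.58.1 in R 4.3.3. It was fitted to log2(value + 1) of 11649 genes, allowing the variance to follow the mean, with p-values adjusted by Benjamini-Hochberg and called under 0.05. The fit was tested on simulated data. Recovered reads, which are counts, were tested with edgeR 4.0.16 and with DESeq2 1.42.0, the tool that the study used. Other alternatives were pseudocounts of 0.5 and 5, no filter, no trend, TMM scaling, a replicate block and leaving out each library. Named genes were all receptors, from each pathway list up to 4 with the smallest p and the most abundant, from each marker list the most abundant, and the 3 nearest in pattern to Cxcr4, Ccr7 and Cx3cr1. Cd8a, Cd4, Foxp3, Tnfsf8, Cd40lg, Cxcl12, Lepr, Sparc, Col1a1, Col1a2, Kdr, Pdgfrb, Emcn, Vcam1, Slc6a20a, Gm33858, Gm57398, Ubac2 and Hba-a2 were added after their values were seen. So were Elane, Mpo, Alas2, Car2, Gnai3, Gm17021 and Gm17200. Lists leave out the 9 receptors, and 1 gene of the lists is not reported here. Positions are from Gencode M39.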

Additional observations from a re-analysis of the deposited data

How the results depend on the processing

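No receptor was called under any of the 14 alternatives. Counts were low for Ccr4, with 18 reads in GC-treated 2. Over all genes limma called 0 higher and 0 lower, against 1 lower without the trend and 2 lower by DESeq2. With 1 library left out, limma called between 0 and 2 genes higher and between 0 and 43 lower, both maxima being without GC-treated 1. The cause was not tested. Cxcr4 (-1.00) ran from -1.29 to -0.62. The median of the 9 receptors (-0.27) ran from -0.55 without vehicle-treated 3 to -0.072 without GC-treated 2. Signs turned for values near 0, with ranges of -0.0040 to 0.095 for Cxcr3, -0.12 to 0.22 for Ccr2, -0.18 to 0.50 for Ccr9 and -0.37 to 0.22 for Ccr7: Cxcr3 at -0.0040 and Ccr2 at -0.12 without vehicle-treated 2, Ccr2 at -0.056 without GC-treated 2, Ccr9 at -0.072, -0.044 and -0.18 without GC-treated 2, GC-treated 3 and vehicle-treated 1, and Ccr7 at 0.13, 0.22 and 0.024 without GC-treated 1, vehicle-treated 2 and vehicle-treated 3. Among the ratios, Cxcr4 against Ccr4 (-0.13) turned to 0.37 without GC-treated 1 and to 0.028 without vehicle-treated 1, with a range from -0.52 to 0.37, and the other 7 stayed negative under the 9 alternatives run for them. The replicate block gave 0 higher and 0 lower genes and left Cxcr4 at -1.00. It cannot change a fold change or a ratio here, since each block holds 1 library of each group. Deviations of same-numbered libraries correlated at 0.063, -0.14 and 0.13 over all tested genes, so no common pairing by number was seen. With the block the standard error fell for Ccr9 (0.37 to 0.18), Ccr7 (0.30 to 0.21), Gpr183 and Ccr8, and rose for the other receptors.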

Other observations

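Of 11 neutrophil markers tested, 9 had positive fold changes, and 5 were higher at an unadjusted p under 0.05 from limma with none called; Ltf was at 617, 5785 and 2499 in GC-treated 1, 2 and 3 against 0, 32.4 and 971 in vehicle-treated 1, 2 and 3. Of 8 naive and central memory genes other than Ccr7, 7 had negative fold changes, and their summed count was 36770 to 42502 in GC-treated and 39249 to 53974 in vehicle-treated libraries. Hba-a1 and Hba-a2, the alpha globin genes, were lower in all 3 GC-treated libraries than in all 3 vehicle-treated libraries, at 128, 140 and 182 against 390, 305 and 183 for Hba-a1, without passing limma's test (adjusted p = 0.62). The erythroid and platelet markers summed to 385 to 631 in GC-treated and 630 to 915 in vehicle-treated libraries. Fold changes were negative for 4 of the 5 tested, with Alas2 at only -0.034, and Car2 was at 0.20. Over all tested genes, 2.12% were higher at an unadjusted p under 0.05, 51.5% had negative fold changes and 6.4% were lower without overlap.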
